A study of Mus musculus with 9 samples.

Results

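Collagen chain genes are the genes that each encode a single alpha chain of a collagen, named in mouse by the word Col, a type number and a chain number. Matching the gene identifiers of the deposited expression table to mouse symbols of that form, with no filter on level, found 44 of its 37668 genes. Of these 44 chains, 29 reached 1 FPKM (fragment counts per transcript length and sequencing depth, the authors' unit of expression) in at least 1 group and were analysed, as were 14225 genes in all. The choice of members used no expression value.

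The study measured polyA RNA from the aorta of 9 male mice, 90 days old, on the mixed strain background 129T2SvEmsJ:C57Blk/6J, with 3 mice in each of 3 groups. All 9 mice carried the floxed allele of the angiotensin II type 1a receptor gene (Agtr1a), a receptor of the blood pressure hormone angiotensin II. The Cdh5Cre group also carried Cre recombinase driven by the promoter of Cdh5, the cadherin of endothelial cells, and the Sm22Cre group carried Cre driven by the promoter of Tagln, a smooth muscle gene also called SM22. The floxed group had no Cre transgene, the labels list no Marfan allele in any group despite the series title, and the comparisons ask how aortic RNA differs when each cell type carries the recombinase. Both Cre drivers act from development onward and can recombine cells beyond the named type, and Tagln is also active in the embryonic heart. No group of mice with Cre and no floxed allele was analysed here, so Cre itself and loss of the receptor cannot be told apart.

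Collagens are trimers of chains whose long stretches repeat glycine, then a pair of other residues, which lets the chains wind into a triple helix. In the artery, types I, III and V form the tensile fibrils made mainly by adventitial fibroblasts and medial smooth muscle cells, while type IV forms the network of the basement membranes around endothelial and smooth muscle cells. Types VI, VIII, XII, XIV, XV, XVI and XVIII link, coat or anchor these structures. Chains are made in the endoplasmic reticulum, where prolyl and lysyl hydroxylases modify them and the chaperone HSP47 (Serpinh1) holds the helix, and propeptides are cut off outside the cell.

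The classes can be read in the coding sequence. Printed here are 90 bases from each of 4 chains that stand for a fibril-forming, a basement membrane and a fibril-associated collagen, in GENCODE M21 transcripts, 5′ to 3′, with each glycine codon (GGN) in capitals and positions counted from the first base of the transcript.
Col1a1, chromosome 11, bases 647 to 736, start of the longest run: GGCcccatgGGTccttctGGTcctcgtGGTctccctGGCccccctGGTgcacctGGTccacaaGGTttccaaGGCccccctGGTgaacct
Col3a1, chromosome 1, bases 700 to 789, start of the longest run: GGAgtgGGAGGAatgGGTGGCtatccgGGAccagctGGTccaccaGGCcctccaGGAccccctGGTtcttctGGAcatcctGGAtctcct
Col4a1, chromosome 8, bases 4239 to 4328, end of the longest run and the codons after it: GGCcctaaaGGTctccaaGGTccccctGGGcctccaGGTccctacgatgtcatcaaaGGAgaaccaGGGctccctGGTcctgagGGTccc
Col14a1, chromosome 15, bases 5061 to 5150, end of the longest run and the codons after it: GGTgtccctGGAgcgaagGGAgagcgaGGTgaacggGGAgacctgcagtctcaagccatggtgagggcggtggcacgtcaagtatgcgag
In Col1a1 and Col3a1 each unit of 3 codons began with a glycine codon through runs of 338 and 344 units, and the first units printed for Col3a1 hold further glycine codons inside them. In Col4a1 the run of 40 units broke for a few codons and then resumed. In Col14a1 the run of 32 units ended, within the bases printed, in sequence with no regular glycine. The whole frame of Col14a1 holds 4 runs of at least 10 units. The longest run held 217 to 344 units in the 8 fibril-forming chains analysed and 39 to 66 units in the 6 type IV chains, whose frames were split into 16 to 19 runs of at least 10 units each. Glycine codons begin with GG and proline codons with CC, and the longest run had a higher GC content than its transcript in 29 of 29 chains, with a median difference of 7.28 percentage points. Base composition matters below, because differences between groups followed it across all genes.

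Each value below is the authors' single FPKM value for a group of 3 mice, so there is no SD, no standard error and no p-value, and no difference has a replicate check. Depth per library is unknown. Differences are log2 ratios of FPKM + 1, and the words counted as higher or lower mark a ratio of 1.5-fold or more, which is 0.58 on this scale. The scale understates differences of chains near 1 FPKM. Agtr1a itself was listed at 1.32 FPKM in Cdh5Cre, 1.21 FPKM in Sm22Cre and 1.75 FPKM in floxed aorta. The labels give the tissue as aorta, and the smooth muscle transcript Tagln was abundant. It was listed at 4477 FPKM in Cdh5Cre, 4112 FPKM in Sm22Cre and 4089 FPKM in floxed aorta. The Cdh5Cre value stood apart from the other two in 2 ways that touch the collagens: globin genes took 4.20% of its summed FPKM, against 1.80% in Sm22Cre and 0.808% in floxed aorta, and its ratios followed transcript length and GC content. A model in length and GC accounted for 44.8% of the variance of the log2 ratios of 12317 protein-coding genes in Cdh5Cre against floxed and 46.4% in Sm22Cre against Cdh5Cre. In Sm22Cre against floxed it accounted for 3.78%. Where its removal moves a call, the value without it is given. Since the RNA came from whole tissue, fewer cells of a type and less RNA per cell cannot be told apart.

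The collagen RNA of these aortas was mostly the RNA of a few chains. All 44 chains summed to 4822 FPKM in Cdh5Cre, 4303 FPKM in Sm22Cre and 4409 FPKM in floxed aorta. As a share of all FPKM in the table this was 0.798% in Cdh5Cre, 0.861% in Sm22Cre and 0.889% in floxed aorta. The sum was thus highest in Cdh5Cre while the share was lowest there, and with globin and mitochondrial genes left out the share was 0.918% in Cdh5Cre, 0.937% in Sm22Cre and 0.966% in floxed aorta. Col1a1, Col1a2 and Col3a1 together made up 51.0% of the collagen sum in Cdh5Cre, 47.2% in Sm22Cre and 47.7% in floxed aorta. Col1a2 was the most abundant collagen in each group, at rank 59 of the 14225 genes in Cdh5Cre, 50 in Sm22Cre and 46 in floxed aorta.

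**Figure D1:**
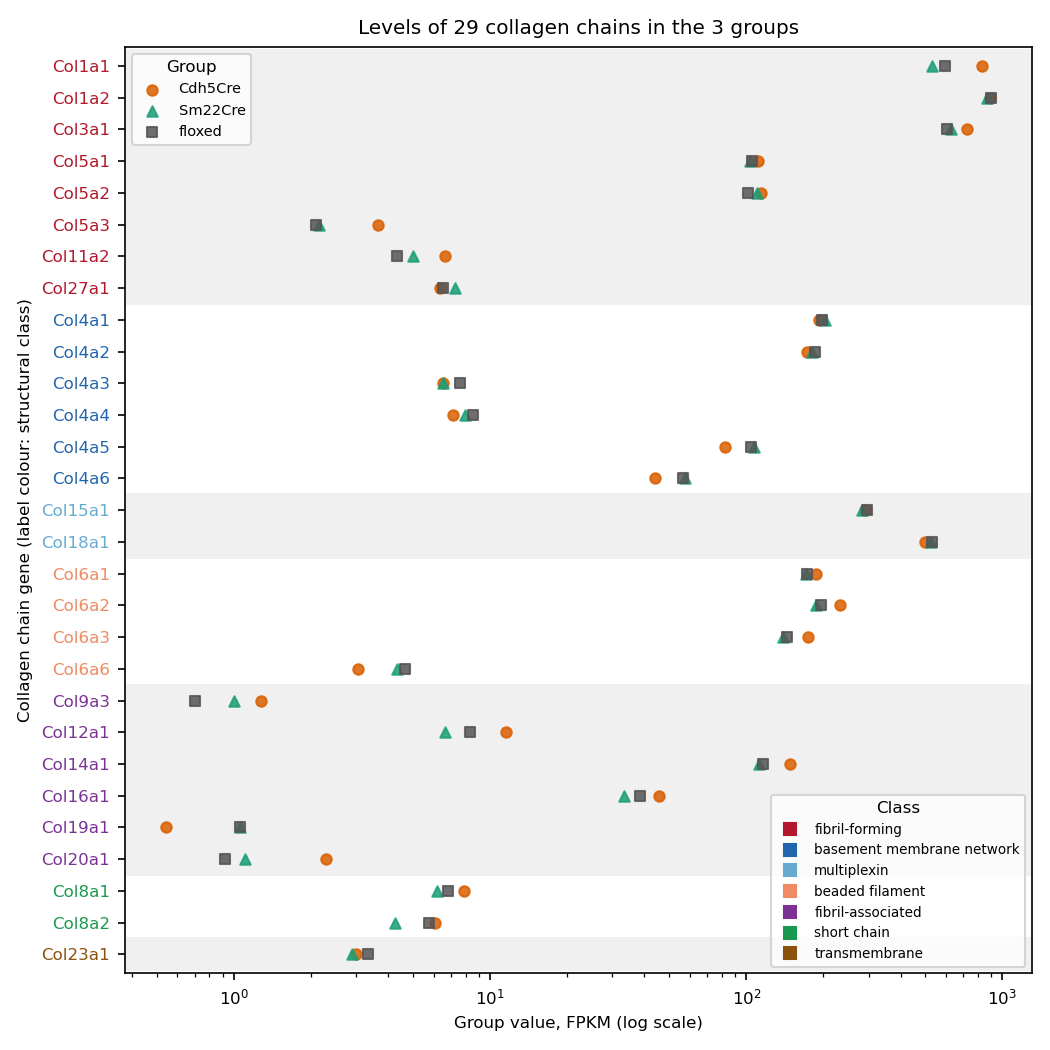
FPKM of the collagen chains analysed in Cdh5Cre, Sm22Cre and floxed aorta, on a log scale, ordered by structural class. Each point is the authors' value for a group of 3 mice, with no error bar because no value per mouse was used; the chains span 0.540 FPKM (Col19a1 in Cdh5Cre) to 901 FPKM (Col1a2 in floxed aorta), and for most chains the 3 points lie close together.

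Fibril-forming chains carried the largest part of the sum, with 8 of 11 members analysed. Their FPKM summed to 56.0% of all collagen in Cdh5Cre, 52.5% in Sm22Cre and 52.7% in floxed aorta. Type IV chains, the basement membrane network, gave 10.5% in Cdh5Cre, 13.1% in Sm22Cre and 12.7% in floxed aorta. The multiplexins Col15a1 and Col18a1, which are basement membrane proteoglycans, gave 16.4% in Cdh5Cre, 18.8% in Sm22Cre and 18.7% in floxed aorta. The Sm22Cre and floxed makeups thus differed by less than 1 percentage point in every class, and in Cdh5Cre the fibril-forming share was higher and the type IV and multiplexin shares lower. Col1a1 alone held 17.3% in Cdh5Cre and 13.5% in floxed aorta, and Col3a1 15.1% and 13.8%, while Col1a2 held 18.6% and 20.4%. All 3 have the status FAIL in the authors' table in each pair of groups. The multiplexin sum was 792 FPKM in Cdh5Cre and 824 FPKM in floxed aorta, so the larger collagen total in Cdh5Cre also lowers the multiplexin share. Type VI chains, which form beaded filaments, gave 12.4% in Cdh5Cre, 11.7% in Sm22Cre and 11.7% in floxed aorta. The fibril-associated chains gave 4.38% in Cdh5Cre, 3.64% in Sm22Cre and 3.80% in floxed aorta.

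**Figure D2:**
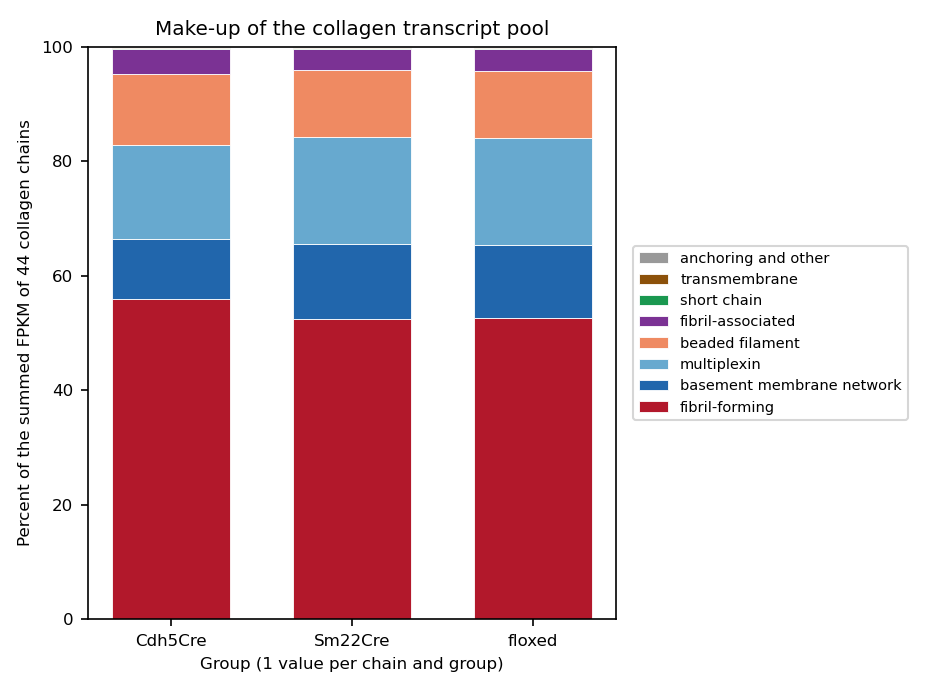
Share of the summed collagen FPKM held by each structural class, in percent, for Cdh5Cre, Sm22Cre and floxed aorta. Fibril-forming chains hold 56.0% in Cdh5Cre, 52.5% in Sm22Cre and 52.7% in floxed aorta, and type IV chains 10.5% in Cdh5Cre, 13.1% in Sm22Cre and 12.7% in floxed aorta. Col1a1 alone holds 17.3% in Cdh5Cre, 12.4% in Sm22Cre and 13.5% in floxed aorta.

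Among the fibril-forming chains, Col1a1 and Col1a2, whose products join as heterotrimers of type I collagen, did not move together in Cdh5Cre. Col1a1 (mm9 chr11:94797538-94814356) was listed at 832 FPKM in Cdh5Cre, 533 FPKM in Sm22Cre and 594 FPKM in floxed aorta. Col1a2 (mm9 chr6:4454814-4491543) was listed at 896 FPKM in Cdh5Cre, 871 FPKM in Sm22Cre and 901 FPKM in floxed aorta. As listed, Col1a1 was thus highest in Cdh5Cre and lowest in Sm22Cre, and Col1a2 was close to level. The log2 ratio of Col1a1 was 0.48 in Cdh5Cre against floxed, and -0.16 with Sm22Cre over floxed. In Sm22Cre against Cdh5Cre it was -0.64 as listed and -0.21 under quantile normalization, which also put the first ratio at 0.01. No ratio of Col1a2 as listed was farther from 0 than -0.05. In Cdh5Cre against floxed its ratio was -0.34 under quantile normalization and -0.21 when scaled to a common sum without globin and mitochondrial genes. In Sm22Cre against Cdh5Cre it was 0.26 and 0.15 in the same order. The ratio of Col1a1 to Col1a2, which a single scaling factor per group leaves as it is (quantile normalization does not), was 0.929 in Cdh5Cre, 0.612 in Sm22Cre and 0.660 in floxed aorta. Both chains have the status FAIL in the authors' table in all 3 pairs of groups, and Col1a1 shares its listed locus with a gene without a symbol, so these values are less certain than most.

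Col3a1 (mm9 chr1:45368383-45406551), whose product is a homotrimer that co-assembles with type I fibrils, was listed at 729.7 FPKM in Cdh5Cre, 628 FPKM in Sm22Cre and 607 FPKM in floxed aorta. Its log2 ratio in Cdh5Cre against floxed was 0.26, was -0.21 under quantile normalization, and its status was FAIL. Type V chains set the diameter of type I fibrils. Col5a1 was listed at 111 FPKM in Cdh5Cre, 103 FPKM in Sm22Cre and 105 FPKM in floxed aorta. Col5a2, whose locus begins 24.6 kb from the end of Col3a1, was listed at 114 FPKM in Cdh5Cre, 110.0 FPKM in Sm22Cre and 102 FPKM in floxed aorta. These major type V chains thus lay within a narrow range. Col5a3, a minor chain of type V, was listed at 3.63 FPKM in Cdh5Cre, 2.14 FPKM in Sm22Cre and 2.08 FPKM in floxed aorta, a log2 ratio of 0.59 in Cdh5Cre against floxed. Its high value was in Cdh5Cre alone, and with the length and GC trend removed the ratio was 0.47, under the 1.5-fold limit. Col11a2 was lower still in level than the major chains, with 6.68 FPKM in Cdh5Cre, 4.99 FPKM in Sm22Cre and 4.33 FPKM in floxed aorta, and Col27a1 had 6.34 FPKM in Cdh5Cre, 7.31 FPKM in Sm22Cre and 6.53 FPKM in floxed aorta. Over the class, 6 of 8 chains were above 0 in Cdh5Cre against floxed, with a median log2 ratio of 0.21. That count was 4 of 8 under quantile normalization and under scaling to a common sum without globin and mitochondrial genes. It was 7 of 8 with the trend removed, so the count depended on the scaling. The common sum moved the median of all genes from 0.02 to -0.15, and the class median was then 0.01, still above that of all genes. Under quantile normalization the class median was -0.014, against -0.006 for all genes.

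The 6 type IV chains form 3 known trimers and sit in pairs that are transcribed away from each other. Col4a1 and Col4a2, the classical chains of most vascular basement membranes, start 21 bases apart on chromosome 8 in the RefSeq annotation of GRCm38.p6. Col4a1 was listed at 192 FPKM in Cdh5Cre, 202 FPKM in Sm22Cre and 197 FPKM in floxed aorta. Col4a2 was listed at 173 FPKM in Cdh5Cre, 181 FPKM in Sm22Cre and 186 FPKM in floxed aorta. The pair thus stayed near equal, with a ratio of Col4a1 to Col4a2 of 1.11 in Cdh5Cre, 1.12 in Sm22Cre and 1.06 in floxed aorta. Col4a5 and Col4a6, which join in the basement membranes of smooth muscle, start 1343 bases apart on the X chromosome. Col4a5 was listed at 82.7 FPKM in Cdh5Cre, 107 FPKM in Sm22Cre and 104 FPKM in floxed aorta. Col4a6 was listed at 43.9 FPKM in Cdh5Cre, 57.6 FPKM in Sm22Cre and 56.7 FPKM in floxed aorta. Both were lowest in Cdh5Cre, with log2 ratios against floxed of -0.33 for Col4a5 and -0.36 for Col4a6, and -0.15 and -0.24 with the trend removed. Their ratio to each other was 1.88 in Cdh5Cre, 1.86 in Sm22Cre and 1.84 in floxed aorta. Col4a1 and Col4a2 have the same listed locus, and Col4a5 and Col4a6 each share theirs with other genes, so these ratios are less certain. Col4a5 also has the status FAIL in all 3 pairs of groups.

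Col4a3 and Col4a4, known from the kidney glomerulus and mutated in Alport syndrome, were far lower. Col4a3 was listed at 6.53 FPKM in Cdh5Cre, 6.56 FPKM in Sm22Cre and 7.60 FPKM in floxed aorta. Col4a4 was listed at 7.14 FPKM in Cdh5Cre, 7.93 FPKM in Sm22Cre and 8.54 FPKM in floxed aorta. For Col4a3 the listed locus also covers Mff, a gene of mitochondrial fission. Col4a4 has the status FAIL in all 3 pairs of groups, and Col4a3 in both pairs with Cdh5Cre. All 6 type IV chains were below 0 in Cdh5Cre against floxed, as listed and under quantile normalization, and 4 of 6 with the length and GC trend removed. Of all 14225 genes analysed, 6857 were below 0 as listed. The common sum also left all 6 chains below 0, but it moved the median of all genes by -0.17 and so could not have changed their signs. None passed 1.5-fold. The ratio of Col4a1 to Col4a5, a chain of each pair, was 2.32 in Cdh5Cre, 1.89 in Sm22Cre and 1.89 in floxed aorta. In Cdh5Cre against floxed their log2 ratios were -0.04 for Col4a1 and -0.33 for Col4a5 as listed. With the trend removed these lay closer together, at -0.03 for Col4a1 and -0.15 for Col4a5.

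As listed, the multiplexins were level. Col15a1 was listed at 292 FPKM in Cdh5Cre, 282 FPKM in Sm22Cre and 295 FPKM in floxed aorta. Col18a1, the source of the fragment endostatin, was listed at 500.2 FPKM in Cdh5Cre, 524 FPKM in Sm22Cre and 529 FPKM in floxed aorta. No log2 ratio of either chain was farther from 0 than -0.08 as listed, although under quantile normalization that of Col18a1 was -0.51 in Cdh5Cre against floxed.

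Type VI collagen links cells to the surrounding fibrils, and its main trimer holds the chains of Col6a1, Col6a2 and Col6a3. Col6a1 was listed at 187 FPKM in Cdh5Cre, 171 FPKM in Sm22Cre and 172 FPKM in floxed aorta. Col6a2 was listed at 231 FPKM in Cdh5Cre, 187 FPKM in Sm22Cre and 196 FPKM in floxed aorta. Col6a3 was listed at 174 FPKM in Cdh5Cre, 139 FPKM in Sm22Cre and 145 FPKM in floxed aorta. All 3 were highest in Cdh5Cre, with log2 ratios against floxed of 0.12 for Col6a1, 0.24 for Col6a2 and 0.27 for Col6a3. With quantile normalization the first of these was -0.07 and the second 0.00, while Col6a3 was above 0 under each scaling tried. Col6a6, a chain that can stand in for Col6a3, went the other way, with 3.05 FPKM in Cdh5Cre, 4.30 FPKM in Sm22Cre and 4.65 FPKM in floxed aorta. The ratio of Col6a3 to Col6a6 was 57.2 in Cdh5Cre, 32.4 in Sm22Cre and 31.1 in floxed aorta. Col6a1 and Col6a3 have the status FAIL in all 3 pairs of groups.

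**Figure D3:**
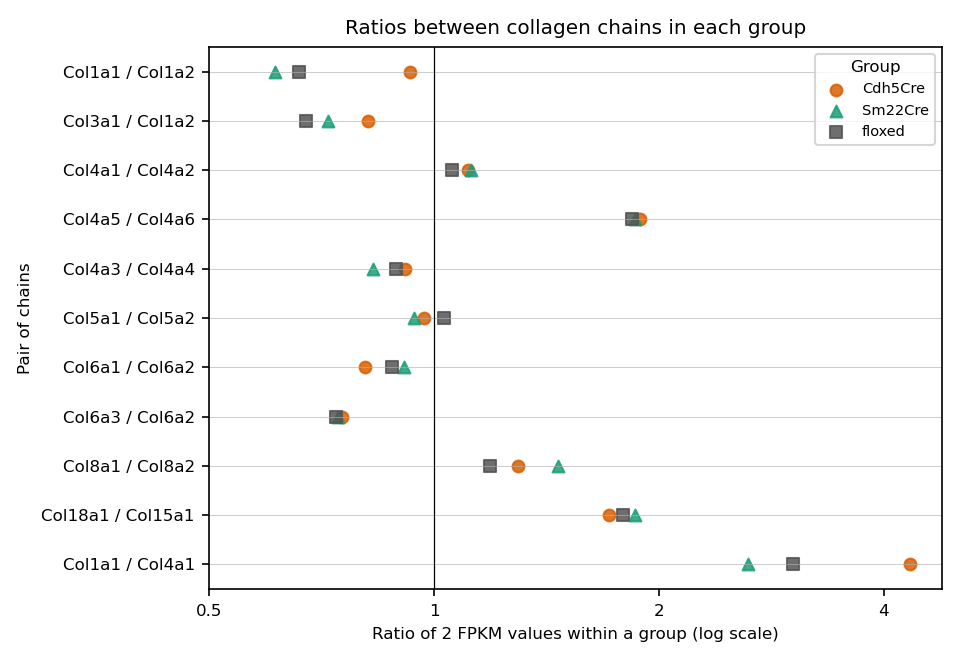
FPKM ratios between chains within a group, on a log scale, for Cdh5Cre, Sm22Cre and floxed aorta; a single scaling factor per group leaves these ratios as they are, while quantile normalization does not. The ratio of Col4a5 to Col4a6 is nearly level at 1.88 in Cdh5Cre, 1.86 in Sm22Cre and 1.84 in floxed aorta, while that of Col1a1 to Col1a2 is 0.929 in Cdh5Cre, 0.612 in Sm22Cre and 0.660 in floxed aorta.

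Fibril-associated collagens have interrupted triple helices and sit on the surface of fibrils. Col14a1, the most abundant of them, was listed at 149 FPKM in Cdh5Cre, 112 FPKM in Sm22Cre and 116 FPKM in floxed aorta. Col12a1 (mm9 chr9:79446798-79566638), which is known from load-bearing tissue, was listed at 11.5 FPKM in Cdh5Cre, 6.66 FPKM in Sm22Cre and 8.30 FPKM in floxed aorta. Col16a1 was listed at 45.4 FPKM in Cdh5Cre, 33.1 FPKM in Sm22Cre and 38.5 FPKM in floxed aorta. All 3 were highest in Cdh5Cre and lowest in Sm22Cre, and each kept a log2 ratio above 0 in Cdh5Cre against floxed under quantile normalization, the common sum and the removed trend. Those ratios as listed were 0.35 for Col14a1, 0.43 for Col12a1 and 0.23 for Col16a1. Removing the trend put Col12a1 at 0.84 and Col14a1 at 0.57, since the trend at their length and GC content runs below 0. Col14a1 and Col16a1 have the status FAIL in all 3 pairs of groups, so their values are less certain. Col20a1, a little studied member of the class, was listed at 2.28 FPKM in Cdh5Cre, 1.10 FPKM in Sm22Cre and 0.924 FPKM in floxed aorta, a log2 ratio of 0.77 against floxed, the highest of the 29 chains. Col19a1 was the exception, with 0.540 FPKM in Cdh5Cre, 1.06 FPKM in Sm22Cre and 1.05 FPKM in floxed aorta. Col9a3, a chain of cartilage, was listed at 1.27 FPKM in Cdh5Cre, 1.00 FPKM in Sm22Cre and 0.700 FPKM in floxed aorta.

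The short chain collagen type VIII is a hexagonal lattice of endothelium and injured smooth muscle. Col8a1 was listed at 7.87 FPKM in Cdh5Cre, 6.18 FPKM in Sm22Cre and 6.80 FPKM in floxed aorta. Col8a2 was listed at 6.07 FPKM in Cdh5Cre, 4.23 FPKM in Sm22Cre and 5.74 FPKM in floxed aorta. Both were lowest in Sm22Cre, where Col8a2 had the lowest log2 ratio of any chain against floxed, -0.37. Col23a1, a transmembrane collagen, was listed at 3.00 FPKM in Cdh5Cre, 2.89 FPKM in Sm22Cre and 3.33 FPKM in floxed aorta.

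The other 15 chains stayed under the filter, with highest group values of 0.0558 to 0.838 FPKM, and none was listed at 0 in all 3 groups. They include Col2a1, Col9a1, Col9a2, Col10a1 and Col11a1, which are known from cartilage, and Col17a1 of the epidermal hemidesmosome. Just under the filter were Col7a1, the anchoring fibril chain, with 0.838 FPKM in Cdh5Cre, 0.569 FPKM in Sm22Cre and 0.499 FPKM in floxed aorta, and Col22a1, with 0.736 FPKM in Cdh5Cre, 0.580 FPKM in Sm22Cre and 0.699 FPKM in floxed aorta. Col19a1 and Col9a3 lay just inside.

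As listed, calls at 1.5-fold were few, and read against all genes they were near the background in the 2 comparisons that gave any. In Cdh5Cre against floxed, Col5a3 and Col20a1 were counted as higher, 2 of 29, and none as lower, where 8.33% of all genes analysed were counted as higher and 6.02% as lower. Both are chains under 4 FPKM. With the trend removed the chains counted as higher were Col12a1 and Col20a1, 2 of 29, and none was counted as lower. Of 12317 protein-coding genes, 364 were then counted as higher and 234 as lower. The median log2 ratio of the 29 chains was 0.08, with 16 above 0, against 0.02 for all genes. Scaled to a common sum without globin and mitochondrial genes, which moved the median of all genes by -0.17, the chains' median was -0.10, with 1 chain counted as higher and 1, Col6a6, as lower. In Sm22Cre against floxed no chain was counted in either direction, where 0.619% of genes were counted as higher and 0.921% as lower. The chains' median there was -0.04, with a range of -0.37 to 0.24, against 0.01 for all genes. In Sm22Cre against Cdh5Cre, Col1a1, Col12a1 and Col20a1 were counted as lower, 3 of 29, and none as higher, where 7.57% of genes were counted as lower and 4.34% as higher. With the trend removed Col1a1 was at -0.54 and no longer counted, while Col12a1 was at -1.04 and Col20a1 at -0.59. Those 2 of 29 chains stood beside 354 of 12317 protein-coding genes counted as lower with the trend removed, and 135 as higher. Under the common sum none was counted in either direction, and the chains' median was 0.09 in place of -0.10. No chain passed 2-fold in any comparison on the listed values with a pseudocount of 1. With the trend removed Col12a1 did so in Sm22Cre against Cdh5Cre, and with a pseudocount of 0.1 Col20a1 did so in Cdh5Cre against floxed, at 1.22. The share of all genes past 2-fold was 1.19% higher and 0.703% lower in Cdh5Cre against floxed, 0.302% higher and 0.33% lower with Sm22Cre over floxed, and 0.401% higher and 1.23% lower with Sm22Cre over Cdh5Cre. These comparisons share their groups, so a high value in Cdh5Cre enters both the first and the last.

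**Figure D4:**
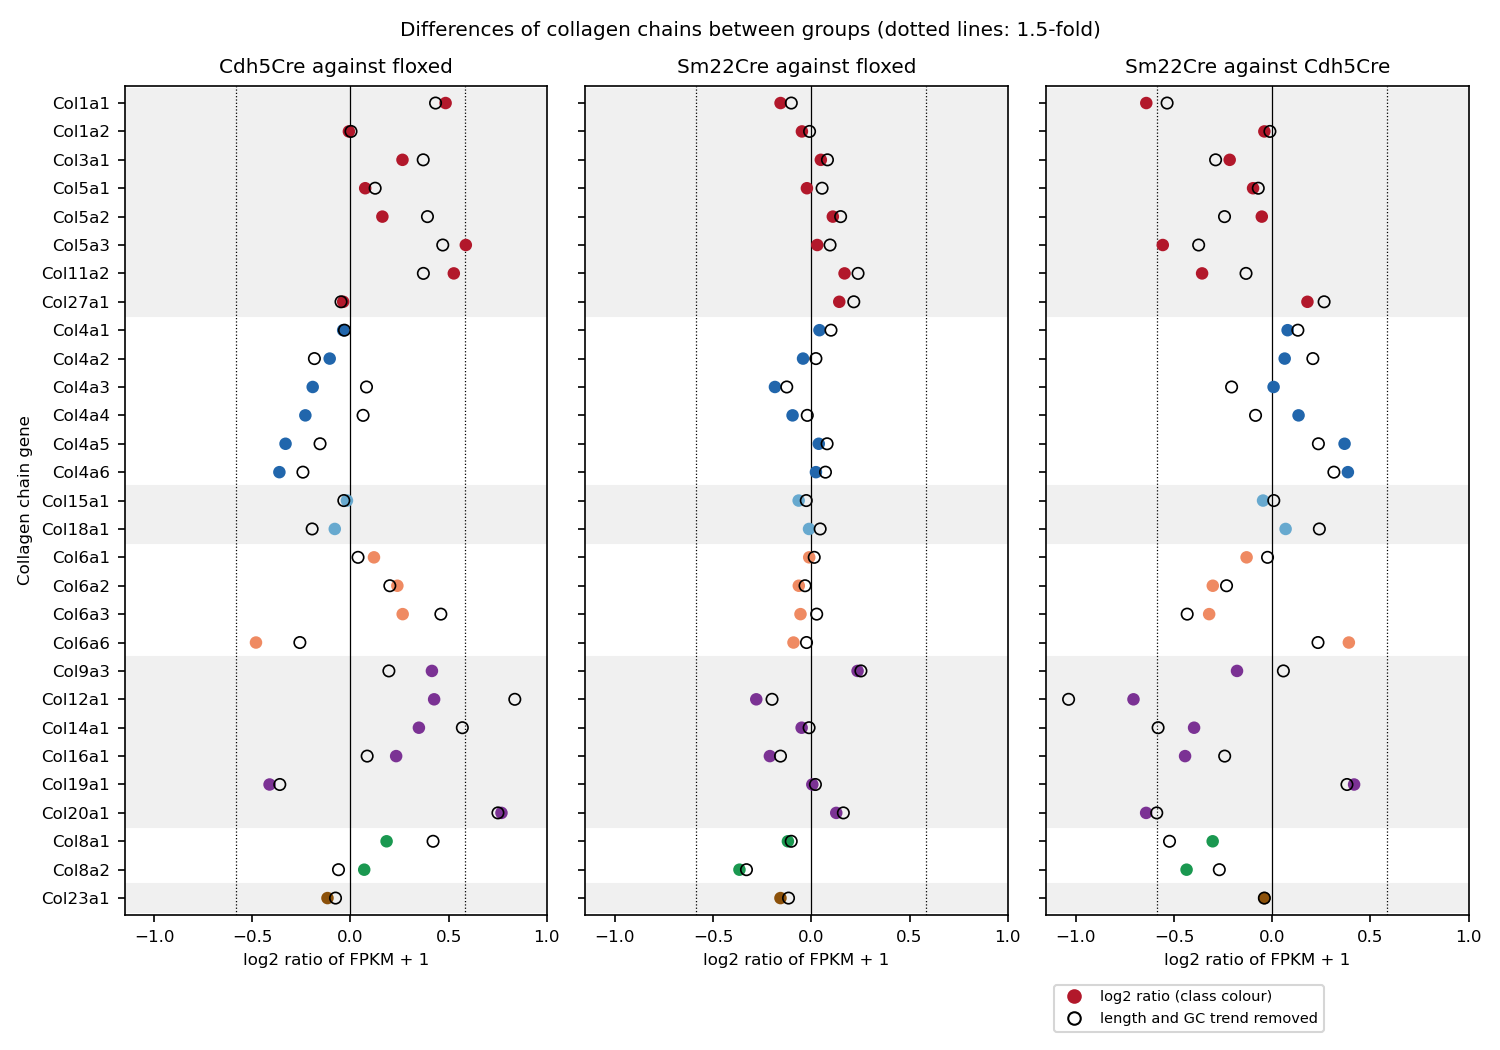
Log2 ratios of FPKM + 1 for each chain in the panels Cdh5Cre against floxed, Sm22Cre against floxed and Sm22Cre against Cdh5Cre, as listed (filled, coloured by class) and with the length and GC trend removed (open), with dotted lines at 1.5-fold. Points in the middle panel lie between -0.37 and 0.25, those of the outer panels spread wider, and Col12a1 reaches 0.84 in the left panel and -1.04 in the right with the trend removed.

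Collagen transcripts are unusual in length and base composition, and each property went with the Cdh5Cre ratios in an opposite direction. Their median length was 6048 bases, against 3120 bases for all protein-coding genes analysed, and 28 of 29 were longer than that median. Their median GC content was 56.1%, against 50.4%, and 25 of 29 were above it. Across 12317 genes the Spearman correlation of the log2 ratio in Cdh5Cre against floxed was -0.58 with length and 0.53 with GC content, a description across genes, which are not independent. Across the 29 chains it was -0.23 with length and 0.24 with GC content. Removing the trend left the chains' median at 0.08 in Cdh5Cre against floxed, with 18 of 29 above 0, against -0.02 for all protein-coding genes. Fibril-forming chains had a median of 0.37, fibril-associated chains 0.38 and type IV chains -0.09.

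**Figure D5:**
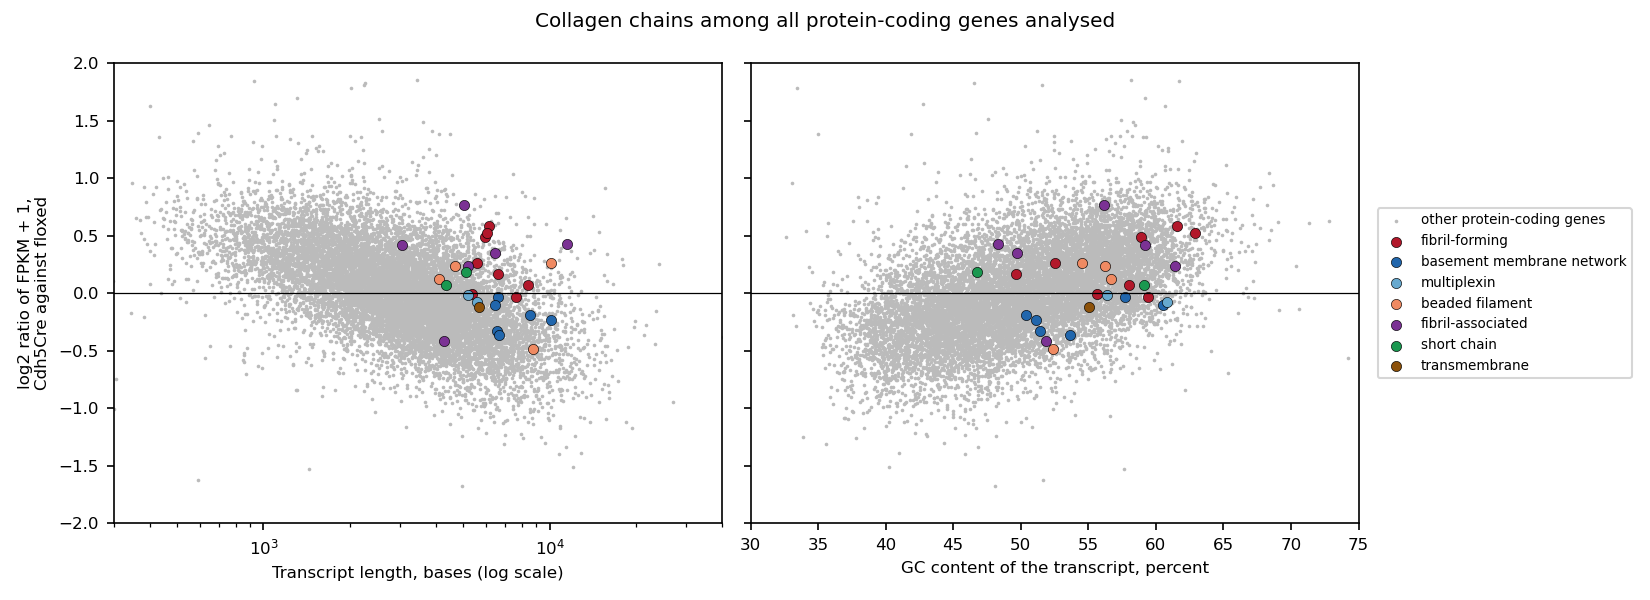
Log2 ratio of FPKM + 1 in Cdh5Cre against floxed for 12317 protein-coding genes (grey) and the collagen chains (coloured by class), against transcript length in bases on a log scale (left) and GC content in percent (right). Long transcripts tend to lie below 0 and GC-rich ones above it, the collagens are both long and GC-rich, and 25 genes lie outside one or both panels.

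Genes that make, bind or regulate collagen are read against the same shares of all genes, and no test compares these lists with the chains. The shares are 8.33% higher and 6.02% lower in Cdh5Cre against floxed, and 4.34% higher and 7.57% lower in Sm22Cre against Cdh5Cre. With the trend removed, 364 of 12317 protein-coding genes were counted as higher and 234 as lower in Cdh5Cre against floxed. In Sm22Cre against Cdh5Cre these counts were 135 and 354. Of 34 collagen making genes, 29 were analysed, and in Cdh5Cre against floxed 20 were above 0, with 4 counted as higher and 1 as lower. The split was 1 higher and 2 lower under quantile normalization, 2 and 2 with the common sum, and 3 and 0 with the trend removed. Among those 3 was Pcolce2, at 0.61 with the trend removed and 0.40 as listed. Serpinh1, which encodes HSP47, was listed at 530.1 FPKM in Cdh5Cre, 322 FPKM in Sm22Cre and 299 FPKM in floxed aorta. Ppib, a prolyl isomerase of the collagen modification complex, was listed at 333 FPKM in Cdh5Cre, 203 FPKM in Sm22Cre and 199.6 FPKM in floxed aorta. Pcolce, an enhancer of propeptide removal, was listed at 363 FPKM in Cdh5Cre, 177 FPKM in Sm22Cre and 192 FPKM in floxed aorta. Their log2 ratios in Cdh5Cre against floxed were 0.82 for Serpinh1, 0.74 for Ppib and 0.92 for Pcolce, and with the trend removed 0.59 for Serpinh1, 0.31 for Ppib and 0.55 for Pcolce, so that Ppib and Pcolce were no longer counted. Under quantile normalization Pcolce alone of these was counted, at 0.68. P4ha1, a prolyl hydroxylase subunit, was the fourth gene counted as higher, with 40.1 FPKM in Cdh5Cre, 34.5 FPKM in Sm22Cre and 26.0 FPKM in floxed aorta. Sec23a, a coat protein of the vesicles that carry procollagen, was lower in Cdh5Cre, with 23.7 FPKM there, 39.5 FPKM in Sm22Cre and 40.1 FPKM in floxed aorta, a log2 ratio of -0.73, or -0.45 with the trend removed. Sparc, a collagen-binding matrix protein and the most abundant of the list, had 2323 FPKM in Cdh5Cre, 1724 FPKM in Sm22Cre and 1780.4 FPKM in floxed aorta. The list's median log2 ratio was 0.28 in Cdh5Cre against floxed and 0.02 with Sm22Cre over floxed, where none was counted. It was -0.28 with Sm22Cre over Cdh5Cre, where 1 gene (Sec23a) was counted as higher and 3 (Serpinh1, Ppib and Pcolce) as lower. Of these 3, Pcolce alone stayed past the limit with the trend removed, at -0.68, and Sec23a was then at 0.42. Pcolce2 passed the limit with the trend removed, at -0.65 in place of -0.44 as listed. The list's median in Cdh5Cre against floxed was 0.05 with the trend removed, 0.07 under quantile normalization and 0.09 with the common sum.

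Of 10 collagen receptors 9 were analysed, and they went both ways. Itga1 and Ddr2, an integrin subunit and a receptor kinase that bind collagen, were counted as lower in Cdh5Cre against floxed. Itga1 was listed at 12.9 FPKM in Cdh5Cre, 23.1 FPKM in Sm22Cre and 23.9 FPKM in floxed aorta. Ddr2 was listed at 34.5 FPKM in Cdh5Cre, 53.4 FPKM in Sm22Cre and 55.6 FPKM in floxed aorta. Their log2 ratios were -0.83 for Itga1 and -0.67 for Ddr2, and with the trend removed -0.27 and -0.24, so that neither was counted. Itga11, a fibroblast integrin subunit, and Gp6, the platelet collagen receptor, were counted as higher. Itga11 was listed at 3.92 FPKM in Cdh5Cre, 1.98 FPKM in Sm22Cre and 2.18 FPKM in floxed aorta, and Gp6 at 1.14 FPKM in Cdh5Cre, 0.325 FPKM in Sm22Cre and 0.210 FPKM in floxed aorta. Gp6 passed the 1 FPKM filter only through Cdh5Cre, the group where it was highest, so its calls in both comparisons with Cdh5Cre depend on that filter. Itgb1, the shared beta subunit and the highest of the list, was listed at 482 FPKM in Cdh5Cre, 626 FPKM in Sm22Cre and 608 FPKM in floxed aorta. Itga11 was at 0.63 with and without the trend and at 0.48 with the common sum, and Gp6 at 0.82 as listed and 1.20 with the trend removed. In Sm22Cre against Cdh5Cre the same 4 genes were counted with opposite sign as listed, 2 as higher and 2 as lower. Of all genes, 4.34% were counted as higher and 7.57% as lower there. With the trend removed Itga1 was at 0.29 and Ddr2 at 0.23 in that comparison. The list's median was 0.15 in Cdh5Cre against floxed, -0.02 with Sm22Cre over floxed and 0.03 with Sm22Cre over Cdh5Cre.

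Among 9 of 10 fibril regulators analysed, 7 were above 0 in Cdh5Cre against floxed and 1, Dpt, was counted as higher. Under quantile normalization 4 were above 0, and 5 with the common sum. Dpt (dermatopontin, which binds decorin and fibrils) was listed at 419 FPKM in Cdh5Cre, 211 FPKM in Sm22Cre and 219 FPKM in floxed aorta, a log2 ratio of 0.93, or 0.79 with the trend removed. Bgn (biglycan), the highest of the list, was listed at 3456 FPKM in Cdh5Cre, 2807 FPKM in Sm22Cre and 3043 FPKM in floxed aorta. In Sm22Cre against floxed 8 of 9 were below 0, with a median log2 ratio of -0.12 and none counted. In Sm22Cre against Cdh5Cre 8 of 9 were below 0 and Dpt and Comp were counted as lower, where 7.57% of all genes were. Their log2 ratios were -0.99 for Dpt and -0.73 for Comp. With the trend removed these were -0.88 for Dpt and -0.42 for Comp.

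Markers of several cell types moved beside the collagens, and their part in these differences was not tested. Of all genes analysed, 51.7% were above 0 in Cdh5Cre against floxed, 8.33% were counted as higher and 6.02% as lower. The 12 adventitial fibroblast markers, among them Dpt, Lum and Dcn of the regulator list, summed to 5641 FPKM in Cdh5Cre, 3890 FPKM in Sm22Cre and 4030 FPKM in floxed aorta, with 11 of 12 above 0 in Cdh5Cre against floxed and 5 counted as higher. The 10 endothelial markers summed to 458 FPKM in Cdh5Cre, 342 FPKM in Sm22Cre and 302 FPKM in floxed aorta, with 10 of 10 above 0 and 4 counted. The 10 smooth muscle markers summed to 7717 FPKM in Cdh5Cre, 7343 FPKM in Sm22Cre and 7450 FPKM in floxed aorta, a sum made mostly of Tagln, with 3 of 10 above 0. Smooth muscle members went both ways in Cdh5Cre against floxed, with Des at 0.66, the 1 member counted as higher, Cnn1 at 0.51, Synpo2 at -0.35 and Mylk at -0.44; these were named after their values were seen. The median was 0.54 for fibroblast, 0.45 for endothelial and -0.10 for smooth muscle markers, and 0.45, 0.41 and -0.08 in that order of lists with the trend removed. With the common sum it was 0.34 for fibroblast, 0.26 for endothelial and -0.30 for smooth muscle markers. Fibroblast markers counted as higher were 5 under quantile normalization, 4 with the common sum and 3 with the trend removed. Endothelial markers counted as higher stayed at 4 under each of these. No smooth muscle marker was counted as higher under any of them, and as lower 2 under quantile normalization and 1 with the common sum. Heart muscle markers summed to 1523 FPKM in Cdh5Cre, 440.0 FPKM in Sm22Cre and 976 FPKM in floxed aorta. Cartilage markers, 7 of 10 analysed, summed to 108 FPKM in Cdh5Cre, 67.5 FPKM in Sm22Cre and 87.5 FPKM in floxed aorta. Comp, also a fibril regulator, gave 88.1 FPKM of that sum in Cdh5Cre, 52.9 FPKM in Sm22Cre and 69.2 FPKM in floxed aorta, and 4 of the 7 were above 0 in Cdh5Cre against floxed. Red cell markers summed to 25453 FPKM in Cdh5Cre, 9029 FPKM in Sm22Cre and 4020.0 FPKM in floxed aorta. The medians of the remaining lists in Cdh5Cre against floxed were 0.37 for 4 skeletal muscle, 0.39 for 8 Schwann cell, 0.36 for 6 mesothelial, 0.20 for 8 macrophage and 0.22 for 7 fat markers. With the trend removed they were -0.06 for skeletal muscle, 0.28 for Schwann cell, 0.22 for mesothelial, -0.13 for macrophage and -0.04 for fat markers, so 3 of these 5 changed sign. Sox10 of the Schwann cell list was listed at 1.71 FPKM in Cdh5Cre, 0.676 FPKM in Sm22Cre and 0.991 FPKM in floxed aorta. Wt1 of the mesothelial list was listed at 1.22 FPKM in Cdh5Cre, 0.715 FPKM in Sm22Cre and 0.956 FPKM in floxed aorta. Both passed the 1 FPKM filter only through Cdh5Cre, the group where they were highest, so the medians of these lists depend on that filter. No marker of any list was listed at 0 in all groups.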

How the data were processed

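RNA was sequenced from the aortas of 9 mice in 3 groups, taken from the titles and Cre labels. Stranded polyA libraries were made, per the labels' protocols. TopHat2 2.0.8, Bowtie2 2.1.0, SAMtools 0.1.7, Cufflinks 1.3.0 and the build mm9 are named in the submitters' processing notes, which give them no role here. The gene annotation, and how strand was used in counting, are not given in the sources used here. The deposited table lists 1 FPKM value for each group, repeated in its pairs, per the file headers. The authors had combined the 3 libraries of a group, so depth is unknown, no SD, interval or p-value could be computed, and the planned limma test on values per library was not possible. Loci start 1 base after the listed start, since that reading gave the GENCODE M21 gene length in 13791 genes, and the other in 336.

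Genes with the status HIDATA in any pair (7 genes, Acta2 among them) were left out, and genes with 1 FPKM or more in any group were kept. Log2 ratios used a pseudocount of 1. A quadratic surface in log2 length and GC content of the longest protein-coding transcript in GENCODE M21 gave the trend, and its removal was tested on simulated data. Alternatives were a pseudocount of 0.1, no filter, a filter at 5 FPKM, quantile normalization, a common sum without globin and mitochondrial genes, status OK alone, shared loci left out, and 2-fold. Of the 29 chains analysed, 15 share a listed locus with another gene. In Cdh5Cre against floxed 19 have the status OK and 10 the status FAIL. Chains were named if they reached 20 FPKM, passed 1.5-fold in any comparison, belonged to types I, III, IV, V, VI or VIII, or lay nearest the filter; the other chains analysed are named to complete each class. Of the lists, members past 1.5-fold and the highest member were named, with Comp, Lum and Dcn added where lists overlap. Pcolce2 was named because it passed 1.5-fold with the trend removed. The members, classes and lists (collagen making, receptor, fibril regulator and cell type markers) were chosen with earlier results of these data known. Python 3.11.15, pandas 2.3.3, NumPy 2.4.6, SciPy 1.17.1 and matplotlib 3.10.9 were used.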

Additional observations from a re-analysis of the deposited data

How the results depend on the processing

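In Sm22Cre against floxed the counts stayed at 0 and the median stayed within 0.1 of -0.04, though with the length and GC trend removed it was 0.02, with 16 of 29 above 0 in place of 11. In Cdh5Cre against floxed, the 2 chains counted as higher became 4 with a pseudocount of 0.1, 0 with a filter at 5 FPKM or a 2-fold limit, and 1 with the common sum or with shared loci left out. The 0 counted as lower became 2 with a pseudocount of 0.1 and 1 with the common sum. The median of 0.08 became -0.067 under quantile normalization, -0.10 with the common sum and 0.21 with shared loci left out. In Sm22Cre against Cdh5Cre, the 0 counted as higher became 1 with a pseudocount of 0.1, and the 3 counted as lower became 0 with the common sum or a 2-fold limit and 1 with shared loci left out. That median of -0.10 became 0.067 under quantile normalization, 0.094 with the common sum and -0.26 with shared loci left out. The collagen share in Cdh5Cre of 0.798% became 0.918% without globin and mitochondrial genes. The cause of each was not tested, except that a filter, a limit or left-out loci reduce the chains that can be counted. Across 348 values of single chains under the alternatives, 133 moved by more than 0.1, 7 dropped below 1.5-fold and 8 passed it; none that had been counted changed sign. Of the 29 chains, 19 had log2 ratios of 1 sign in Cdh5Cre against floxed across the listed values and 4 alternatives that rescale them. No paired analysis was possible because the table holds 1 value per group and the groups share no replicate numbers. For the same reason no mouse could be left out.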
